A study of Drosophila melanogaster with 24 samples.

Results

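The transcripts described here rose by at least 0.6 on the log2 scale between the late larva and the prepupa in both Canton-S and Samarkand, and by less than 0.3 in Oregon-R. They were chosen on the mean of 3 arrays per strain and stage, and 77 of the 16637 transcripts of the array (0.463%) met all 3 thresholds. The values of these 3 strains are therefore a description and carry no test, while the arrays of the strain Zimbabwe-109 did not enter the choice. The number of transcripts chosen was sensitive to single arrays, at 137 without Oregon-R prepupa replicate 3 and 125 without Samarkand late larva replicate 3. It was 46 with the arrays centred on their medians, 22 with no scaling and 150 with normexp background correction.

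Whole-animal messenger RNA was measured in Drosophila melanogaster prepupae and late larvae of 4 wild-type strains, on 24 single-colour arrays with 3 biological replicates in each of 8 groups. Prepupae were white prepupae, animals that had just formed the puparium, and late larvae were in the last larval instar, with a label that carries the number 18 before puparium formation and no unit. Each replicate pooled many frozen animals whose sex the labels do not give, and all larvae had been fed a blue dye at 25 °C. Canton-S and Oregon-R are wild-type stocks long kept in laboratories, and for all 4 strains the labels give the name alone. RNA of each strain was extracted separately, so a difference between strains cannot be told apart from a difference between extractions.

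Puparium formation follows a pulse of the steroid hormone ecdysone at the end of larval life. The hormone binds a nuclear receptor made of EcR and Usp and switches on a small set of regulatory genes, which in turn control large sets of genes in each tissue. Over the same hours salivary glands expel glue, imaginal discs begin to form adult structures, and larval tissues such as the midgut start to be replaced. In pooled whole animals, fewer cells of a type and less RNA per cell cannot be told apart.

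No gene name could be attached to any of the 77 transcripts. The reference table of genes lists 44 of the 16637 FlyBase transcript identifiers, of which 16 belong to 1 gene, and none of the 44 was among the 77. Marker genes of tissues could not be read for the same reason, so the tissue make-up was not checked. Median deposited intensity ran from 1936 to 3289 over the 24 arrays, and precision is limited by the number of arrays. Before scaling, the 6 Canton-S arrays spread wider, at an interquartile range of log2 values of 1.56 ± 0.08 (SD), against 1.23 to 1.24 in each other strain. Earlier results on these data had set apart Zimbabwe-109 late larva replicate 4 and prepupa replicate 2, and values in that strain are therefore also given without them. Each array was also correlated with the mean of the other 2 of its group. Larval replicate 4 was the closest of its group, at 0.992, against 0.976 and 0.969 for replicates 1 and 3. Prepupa replicate 2 was at 0.975, against 0.987 and 0.995 for replicates 3 and 4.

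With quantile scaling, the strain difference lay mainly in the late larvae. The median log2 intensity of the 77 transcripts was almost the same at both stages in Oregon-R. This level lay above larvae of every other strain and below prepupae of Canton-S and Samarkand. The change within each transcript had a median of 0.22 in Oregon-R. In Canton-S and Samarkand the larvae stood lower than in Oregon-R. Larvae of Zimbabwe-109 lay in between.

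In Oregon-R, the median over the 77 transcripts was 12.60, 12.67 and 12.48 on the prepupal arrays, against 12.56, 12.56 and 12.48 on the larval arrays. These array medians overlapped between the stages. Each transcript was also centred on its mean over all arrays, and the deviations were averaged over the 77 on each array. This mean deviation was 0.18, 0.24 and 0.19 on the Oregon-R prepupal arrays and 0.04, 0.07 and 0.02 on the larval arrays. The stages did not overlap in it. In Canton-S the median over the 77 transcripts was 12.84, 13.01 and 12.95 in prepupae and 12.06, 11.99 and 11.83 in larvae. In Samarkand it was 12.68, 12.81 and 12.78 in prepupae and 11.80, 12.11 and 11.999 in larvae. Prepupal and larval arrays were fully separate in both strains, as the choice of the transcripts requires on average. In Zimbabwe-109 the prepupal arrays stood at 12.67, 12.70 and 12.64 and the larval arrays at 11.94, 12.38 and 12.17. The larval arrays of Zimbabwe-109 were the most spread of all groups, with an SD of 0.22 (n = 3), against 0.04 in Oregon-R larvae.

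**Figure D1:**
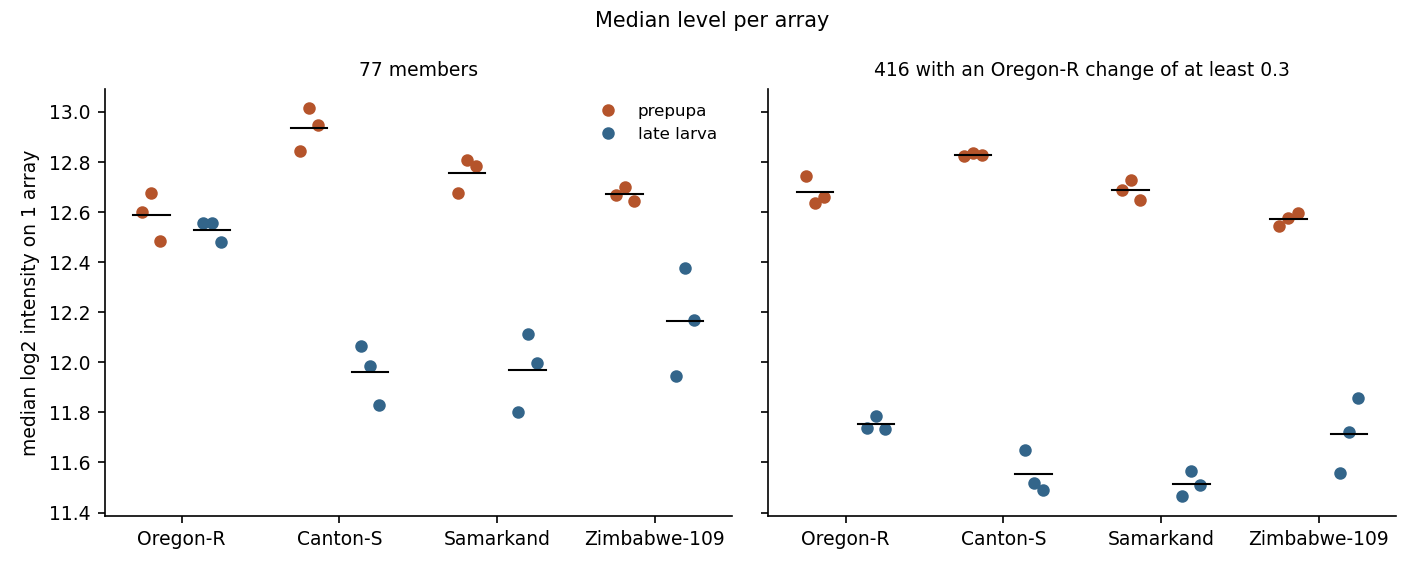
Median log2 intensity on each array, with each strain's prepupae left of its late larvae, points for arrays and black lines for means of 3 arrays; the left panel shows the 77 transcripts and the right panel the 416 that rose as much in Canton-S and Samarkand and by at least 0.3 in Oregon-R. In the left panel the larval arrays of Oregon-R stand at 12.48 to 12.56, above every larval array of the other 3 strains.

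The stage change, prepupa minus late larva on the log2 scale, had a median over the 77 transcripts of 0.85 in Canton-S (1.80-fold) and 0.69 in Samarkand (1.61-fold). The median was 0.53 in Zimbabwe-109 (1.44-fold) and only 0.22 in Oregon-R (1.17-fold). Over all 16637 transcripts the 4 medians lay between 0.03 and 0.09. The Canton-S change was larger than the Samarkand change in 62 of the 77. It reached 1, a 2-fold rise, in 20 transcripts in Canton-S and in 8 in Samarkand, with 6 in both. The steepest rise was 1.88 in Canton-S (3.67-fold).

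Small positive values made up most of the Oregon-R changes. The Oregon-R change was below 0 in 8 transcripts, from 0 to 0.1 in 5, from 0.1 to 0.2 in 18 and from 0.2 to 0.3 in 46. In 48 of the 77 every Oregon-R prepupal array stood above every larval array, which holds for 20.5% of the whole table. The choice used these same values, so nothing more is read from them.

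**Figure D2:**
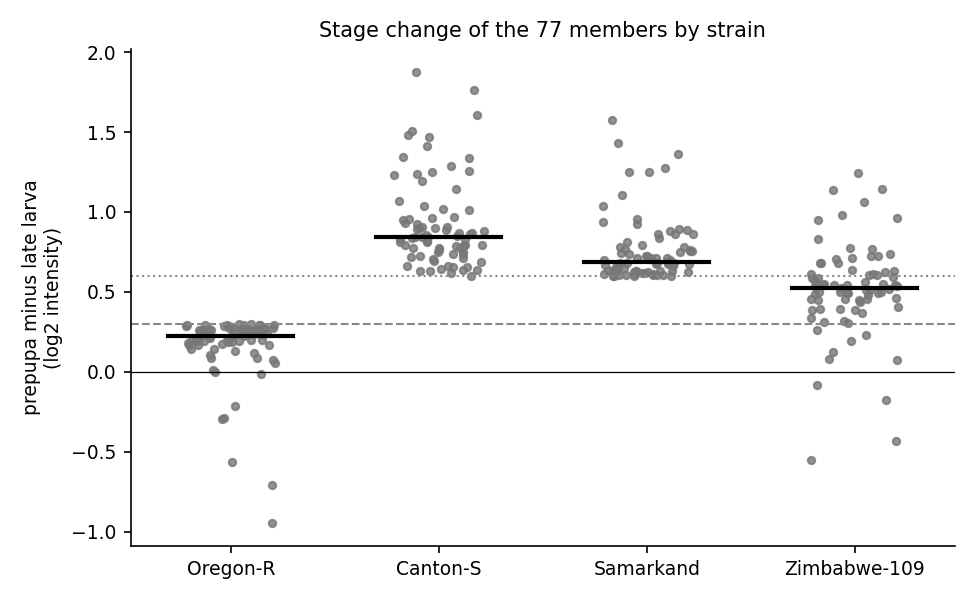
Stage change of each of the 77 transcripts in each strain (prepupa minus late larva, log2 intensity), with black bars at the medians of 0.22, 0.85, 0.69 and 0.53; the dotted line marks 0.6 and the dashed line 0.3. The values in Oregon-R crowd below 0.3 with a tail under 0, and those in Zimbabwe-109 spread from -0.55 to 1.25.

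There was no gap at the thresholds. Among the transcripts that rose by at least 0.6 in both Canton-S and Samarkand, 89 had an Oregon-R change from 0.3 to 0.4, next to the 46 from 0.2 to 0.3. The 3 transcripts nearest below the Oregon-R threshold changed by 0.30, 0.30 and 0.29 in that strain and the 3 nearest above it by 0.30 each. At the Canton-S threshold the nearest inside were at 0.60, 0.62 and 0.63 and the nearest outside at 0.60, 0.60 and 0.58. At the Samarkand threshold all 6 neighbours were at 0.60. The comparison group used below is formed by the 416 transcripts with the same rises in Canton-S and Samarkand and an Oregon-R change of at least 0.3.

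**Figure D3:**
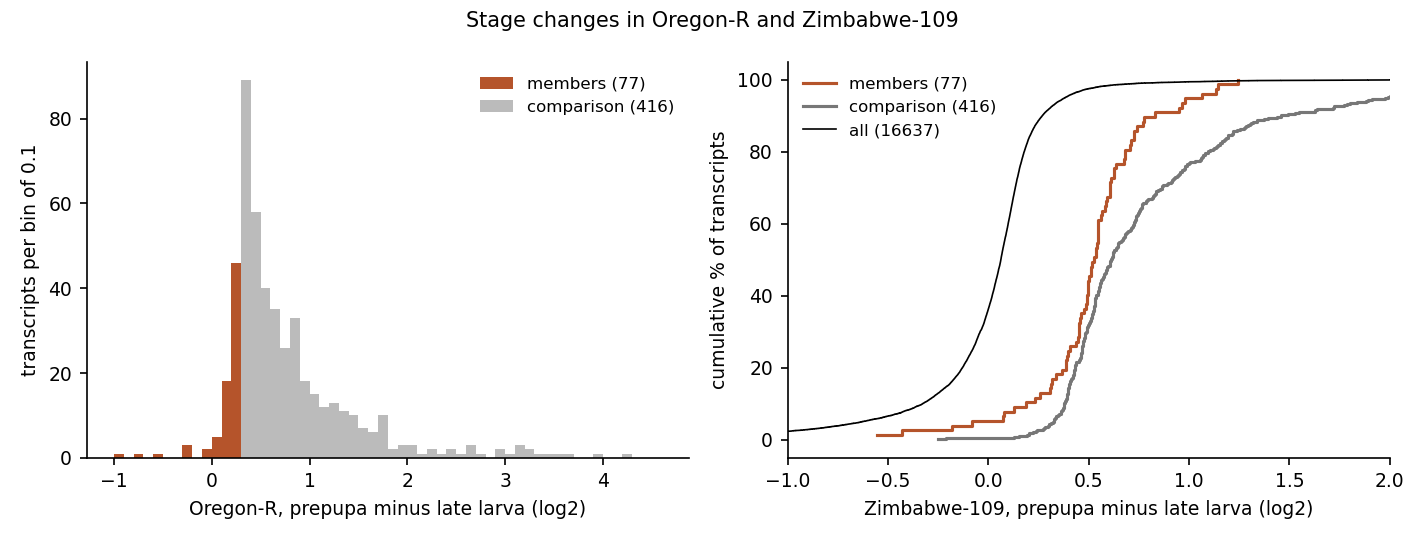
Left, number of transcripts per bin of 0.1 by their Oregon-R stage change (log2), among the 493 that rose by at least 0.6 in both Canton-S and Samarkand; right, cumulative percentage of transcripts by their Zimbabwe-109 stage change (log2), drawn from -1 to 2. The counts run on without a break across 0.3, and in Zimbabwe-109 the 77 members and the 416 comparison transcripts both lie right of the whole table.

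To show which level makes the difference, Oregon-R was set against the mean of Canton-S and Samarkand at each stage. In late larvae Oregon-R was higher by a median of 0.54 on the log2 scale, with quartiles of 0.38 and 0.77. In prepupae the median difference was -0.06, with quartiles of -0.29 and 0.13. The larval difference was above 0 in 76 of the 77, against 334 of the 416 comparison transcripts (80.3%) and 56.2% of the table. The 77 were chosen on these same arrays, so nothing is read from this count. With median centring the larval difference was 0.42 and the prepupal one -0.28, and with no scaling they were 0.47 and -0.26. The prepupal share of the contrast therefore depends on how the arrays are scaled.

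Oregon-R larvae also stood high in transcripts that rose by at least 0.3 in Oregon-R too. In the 416 comparison transcripts the median larval difference was 0.23 and the prepupal one -0.04, and for all transcripts they were 0.05 and 0.01. All 3 Oregon-R larval arrays lay above all 6 Canton-S and Samarkand larval arrays in 66 of the 77 transcripts, against 201 of the 416 (48.3%) and 30.4% of the table. The choice of the 77 uses these same arrays, so nothing is read from this share. Whether the position of Oregon-R larvae in the comparison transcripts has a part in the pattern of the 77 was not tested.

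The larval difference was the larger of the 2 in size in 63 of the 77 transcripts (81.8%). With quantile scaling this also held for 71.9% of the whole table and for 276 of the 416 comparison transcripts (66.3%). A larger larval difference is thus not particular to the 77. The count in the 77 was 43 with median centring and 47 with no scaling, where no table share was counted. In these 63 the median level in Oregon-R was 13.14 in prepupae and 12.91 in larvae. Canton-S prepupae stood at 13.06 and its larvae at 12.16. For Samarkand these medians were 13.00 in prepupae and 12.36 in larvae, and Zimbabwe-109 had 13.14 in prepupae and 12.69 in larvae. The split uses these same levels, so high Oregon-R larvae in this group follow from it and are a description.

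The prepupal difference was the larger in the other 14, where it is below 0 by construction, since every member has a smaller stage change in Oregon-R than the mean of Canton-S and Samarkand. The median level of these 14 was 11.39 in Oregon-R prepupae and 11.45 in Oregon-R larvae. Canton-S had 12.52 in prepupae and 11.72 in larvae, Samarkand 11.97 and 11.28, and Zimbabwe-109 12.04 and 11.49. Over all 77, and not only these 14, all 3 Oregon-R prepupal arrays lay below all 6 of Canton-S and Samarkand in 15. This held for 43 of the 416 comparison transcripts (10.3%) and 5.42% of the table. The choice used these same arrays, so nothing is read from this count. Within the 14, the median prepupal difference of Oregon-R to the mean of Canton-S and Samarkand was -0.50, and the larval one 0.19. These 14 were dimmer, with a median level over all arrays of 11.78, against 12.77 in the 63 and 11.35 over all transcripts.

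**Figure D4:**
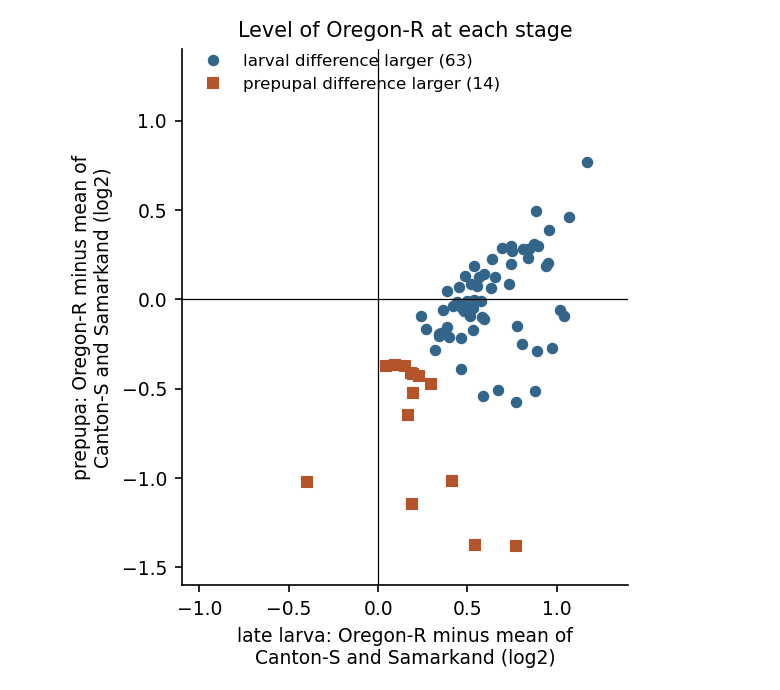
Level of Oregon-R minus the mean level of Canton-S and Samarkand for each of the 77 transcripts, in late larvae on the horizontal axis and in prepupae on the vertical axis (both log2). Circles mark the 63 transcripts with the larger difference in larvae, all right of 0 and spread around a vertical value of 0, and squares mark the 14 with the larger difference in prepupae, at -0.36 or lower.

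The widest contrast between strains was found in FBtr0071579, whose product is not named in the reference table. Its log2 intensity was 12.07, 11.86 and 11.76 in Oregon-R prepupae and 12.56, 12.53 and 12.29 in Oregon-R larvae. It was 13.71, 13.45 and 13.51 in Canton-S prepupae and 12.21, 11.88 and 11.76 in Canton-S larvae. In Samarkand it was 13.15, 12.92 and 12.92 in prepupae and 11.19, 11.55 and 11.53 in larvae. The transcript was thus lower in prepupae than in larvae in Oregon-R, with no overlap, and higher in the other 2 strains. Its stage change was -0.56 in Oregon-R, against 1.60 and 1.57 in the strains of the choice that rose, each with an SE of 0.14. In Zimbabwe-109, which the choice did not use, it stood at 12.88, 13.24 and 13.15 in prepupae and 11.54, 12.01 and 11.98 in larvae. It rose there by 1.25 ± 0.14 (SE, limma adjusted p = 1.17e-06, 2.37-fold), with all prepupal arrays above all larval ones.

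The next widest, FBtr0071580, carries the following identifier number, and whether both come from 1 gene was not tested. It stood at 11.15, 11.28 and 11.12 in Oregon-R prepupae and 12.23, 12.20 and 11.97 in Oregon-R larvae, a change of -0.95 ± 0.14 (SE). In Canton-S it was 13.45, 13.02 and 12.96 in prepupae and 12.15, 11.65 and 11.85 in larvae. In Samarkand it was 12.03, 11.96 and 11.92 in prepupae and 11.08, 11.39 and 11.43 in larvae. Oregon-R prepupae were thus the lowest of the 4 prepupal groups, while Oregon-R larvae were the highest of the 4 larval groups. In Zimbabwe-109 it was 12.17, 12.64 and 12.56 in prepupae and 11.51, 11.76 and 11.78 in larvae. The rise there was 0.78 ± 0.14 (SE, limma adjusted p = 0.000333), and it did not pass with no scaling (0.58, adjusted p = 0.0638). The transcript with the preceding number was also among the 77 and followed these 2 in the size of the strain contrast.

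In all, 9 of the 77 carried a number next to that of another of them, in 4 runs. The closest such pair differed by a root mean square of 0.03 on the log2 scale over the 24 arrays. The 77 are therefore not 77 independent measurements. Next-door numbers are common in the table as a whole, where 94% of identifiers have one.

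Zimbabwe-109 is the strain that can test the stage change of these transcripts. Of the 77, 65 rose, 1 fell and 11 did not pass the test (limma moderated test, two-sided, Benjamini-Hochberg over 16637 transcripts, threshold 0.05). Of all transcripts, 16.3% were called higher and 13.3% lower. The 65 rises had a median of 0.55 on the log2 scale, from 0.31 to 1.25, with a median SE of 0.10. The scaling of the arrays and the estimate of the spread are shared by all strains, so Zimbabwe-109 is not fully separate from the choice.

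The 65 of 77 (84.4%) stood beside 371 of the 416 comparison transcripts (89.2%) called higher in Zimbabwe-109. The median change was 0.53 in the 77 and 0.61 in the 416. All 3 prepupal arrays lay above all 3 larval arrays in 65 of the 77 (22.8% of the table), and below all of them in 2 (17.1%). Without the 2 Zimbabwe-109 arrays named above, 60 of the 77 rose (16.5% of the table) and the median change was 0.57. With no scaling only 13 of the 77 were called higher (1.09% of the table), with a median change of 0.33, and the calls over the table turned from 2708 higher and 2220 lower to 182 higher and 1133 lower.

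The thresholds set a low Oregon-R and high Canton-S and Samarkand change, so the rank of Zimbabwe-109 among the strains is not given as a result. By the thresholds of the choice, 25 of the 77 had a Zimbabwe-109 change of at least 0.6 (1.67% of the table), 42 lay from 0.3 to below 0.6 (6.64%) and 10 lay below 0.3 (91.7%). Differences between strains were not tested, since they use the arrays of the choice.

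The late larvae of Zimbabwe-109 lay between Oregon-R and the mean of Canton-S and Samarkand in 49 of the 77, above both in 14 and below both in 14. No share of the table was counted for these positions. The larvae of Zimbabwe-109 exceeded the mean of Canton-S and Samarkand by a median of 0.35, and in prepupae the median difference was 0.04. Zimbabwe-109 late larva replicate 1 was the lowest of its 3 arrays in 63 of the 77, and no share of the table was counted. This array was also the lowest of its group in the comparison transcripts. Their mean deviation was -0.58 on it, against -0.37 and -0.24 on larval replicates 3 and 4. Without larval replicate 1, 58 of the 77 rose (11.1% of the table was called higher) and the median change was 0.45. Without replicate 3 of the same group 69 rose (17.9% of the table) and the median was 0.58.

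The transcripts with the larger difference in prepupae rose in Zimbabwe-109 in 12 of 14 cases (85.7%). Those with the larger difference in larvae rose in 53 of 63 (84.1%). Among the comparison transcripts 371 of 416 rose (89.2%), and 16.3% of the table did. Nothing particular to either part is therefore read from these counts. The median changes were 0.60 in the 14 and 0.51 in the 63. In the 10 transcripts with a Zimbabwe-109 change below 0.3, the median level was 11.74 in Zimbabwe-109 prepupae and 11.77 in its larvae. Oregon-R had 11.70 in prepupae and 11.81 in larvae for the same 10. Canton-S prepupae were at 12.46 against 11.62 in its larvae, and Samarkand prepupae at 12.45 against 11.58 in larvae. The prepupal means of Zimbabwe-109 and Oregon-R both stood below those of Canton-S and Samarkand in 5 of these 10, which were picked on their Zimbabwe-109 change.

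The transcript that fell in Zimbabwe-109 was FBtr0082339, singled out after its values were seen. In Zimbabwe-109 its log2 intensity was 12.44, 12.66 and 12.22 in prepupae and 12.99, 13.19 and 12.80 in larvae. The fall was -0.55 ± 0.15 (SE, limma adjusted p = 0.00912), and without Zimbabwe-109 prepupa replicate 4 it did not pass (-0.45, adjusted p = 0.063). In Oregon-R it stood at 11.89, 11.97 and 11.84 in prepupae and 12.10, 12.07 and 12.17 in larvae. In Canton-S it was 12.49, 12.39 and 12.58 in prepupae and 11.59, 11.41 and 11.25 in larvae. In Samarkand it was 12.54, 11.83 and 12.61 in prepupae and 11.46, 11.53 and 11.41 in larvae, so that 1 prepupal array stood well under the other 2. The larvae of Zimbabwe-109 were the highest of all 8 groups for this transcript.

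FBtr0080811, also singled out after its values were seen, changed little in Zimbabwe-109 and Oregon-R. In Zimbabwe-109 it stood at 11.39, 11.47 and 11.51 in prepupae and 11.54, 11.54 and 11.53 in larvae, a change of -0.08 ± 0.07 that did not pass (SE, limma adjusted p = 0.43). In Oregon-R it was 11.45, 11.52 and 11.48 in prepupae and 11.34, 11.38 and 11.34 in larvae. In Canton-S it was 12.48, 12.39 and 12.43 in prepupae and 12.05, 11.72 and 11.70 in larvae, and in Samarkand 12.60, 12.44 and 12.66 in prepupae and 11.65, 11.71 and 11.70 in larvae. Here Oregon-R larvae were the lowest of the 4 larval groups, so that the strain contrast came from prepupae alone. It was the single one of the 77 in which Oregon-R larvae lay below the mean of Canton-S and Samarkand.

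**Figure D5:**
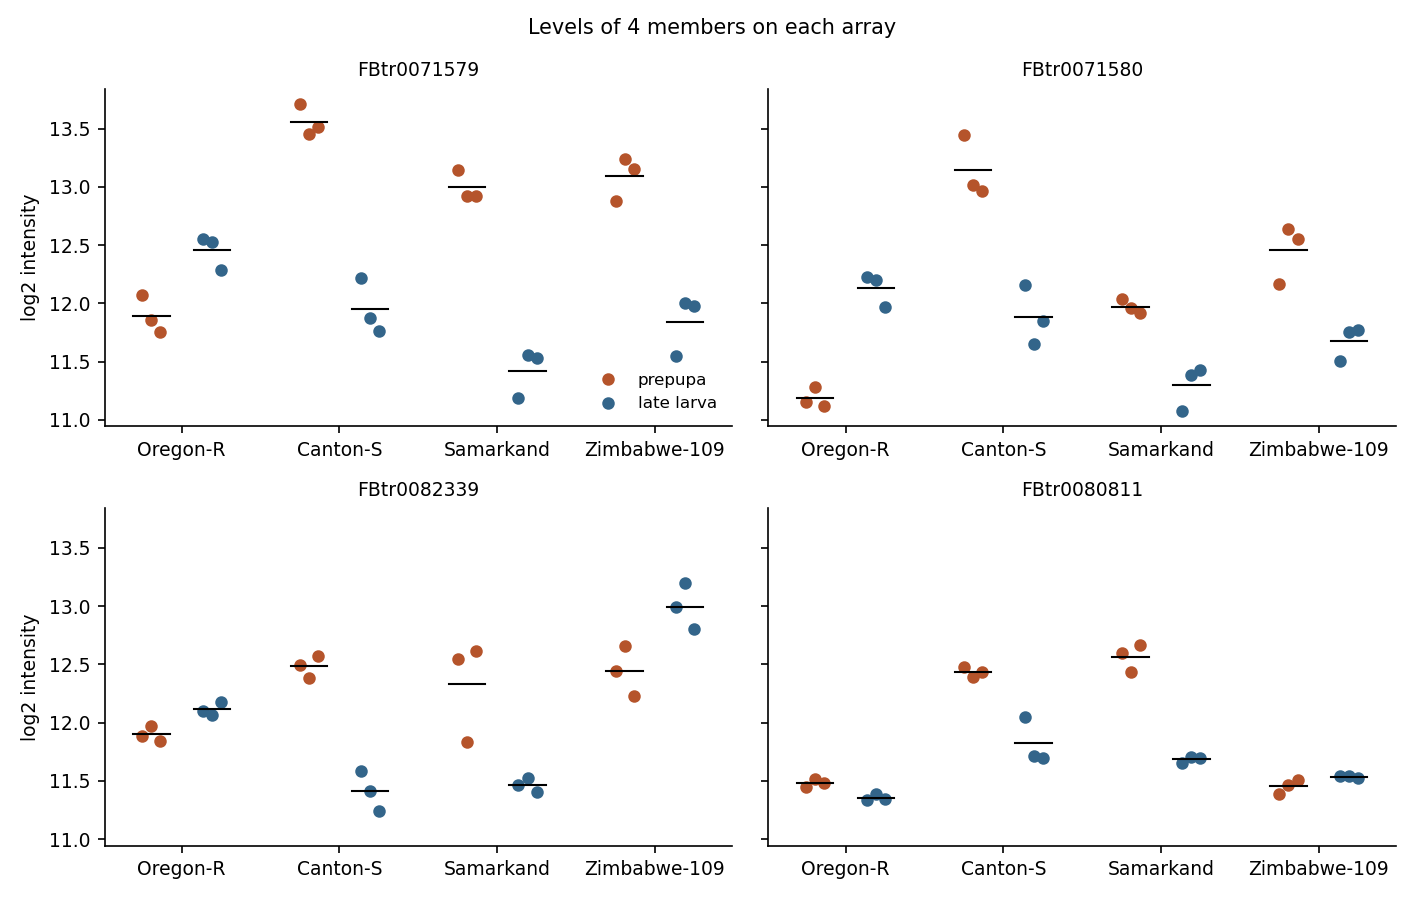
Log2 intensity of FBtr0071579, FBtr0071580, FBtr0082339 and FBtr0080811 on each of the 24 arrays, with each strain's prepupae left of its late larvae and black lines at the means of 3 arrays. The upper panels show prepupae below larvae in Oregon-R and above them in the other strains, and the lower panels show prepupae at or below larvae in Zimbabwe-109.

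Among the 16 transcripts that carry a gene name, CG31178 came nearest to the choice, since it met the thresholds in Canton-S (0.83) and Oregon-R (0.16) and missed the one in Samarkand (0.56). Its log2 intensity was 12.10, 12.20 and 12.11 in Oregon-R prepupae and 11.92, 12.03 and 11.99 in Oregon-R larvae. In Samarkand it was 11.91, 12.14 and 11.99 in prepupae and 11.37, 11.56 and 11.44 in larvae. Its prepupal levels lay close together in these 2 strains and its larval level was higher in Oregon-R. Of the 30 gene lists drawn up for this stage and for the tissues of the animal, 3 had any named transcript: the histone list with His4r, the chromatin list with kis, HDAC3 and SuUR, and the ubiquitin list with Uba1 and rdx. None of these 6 was among the 77, and their changes ran from -0.30 to 0.53 in Canton-S.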

How the data were processed

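The authors deposited 1 table of array intensity values on a linear scale, as whole numbers for 16637 FlyBase transcripts in 24 samples. The submitters' processing notes name RMA, with no version, yet array medians differed, so no common scale was present. Whether a background had been subtracted is not known.

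Intensities were taken to log2 and quantile normalized over the 24 arrays with limma 3.58.1 in R 4.3.3. Transcripts were chosen from group means as stated above, and no transcript was filtered out. limma was fitted to all groups at once (8 means, 16 residual degrees of freedom) and gave the stage change per strain, with p-values adjusted by the Benjamini-Hochberg method over the whole table. Members, lists and rules were chosen with earlier results of these data known. No member had a gene name, so the naming rule allowed the 2 identifiers with the widest strain contrast, and 2 more are named because their prepupal arrays all lay below their larval arrays in Zimbabwe-109. Alternatives changed scaling, background, dim transcripts, arrays, pairing and thresholds. P-values measure the spread between biological replicates pooled over all 8 groups, and not the spread of the Zimbabwe-109 replicates alone. With the 6 Zimbabwe-109 arrays fitted alone (4 residual degrees of freedom), 7.28% of the table was called higher in that strain, against 16.3%.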

Additional observations from a re-analysis of the deposited data

Results flagged for a closer look

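FBtr0082339 changed by -0.55 in Zimbabwe-109, where every prepupal array lay below every larval array, while in Canton-S and Samarkand every prepupal array lay above. FBtr0080811 changed by -0.080 in Zimbabwe-109 in the same arrangement, a difference of small size. The difference between the strains was not tested for either, because the Canton-S and Samarkand arrays were used to choose them. All prepupal arrays lay below all larval arrays of Zimbabwe-109 in 17.1% of the whole table.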

How the results depend on the processing

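The number of transcripts chosen depended most on the processing. It was 46 with median centring (36 of them shared with the 77), 22 with no scaling (19 shared) and 150 with normexp (52 shared). It was 31 and 166 with Oregon-R limits of 0.2 and 0.4, and 231 and 31 with Canton-S and Samarkand limits of 0.5 and 0.7. Leaving out 1 array gave 60 to 137. For the 77, the count called higher in Zimbabwe-109 was 58 (11.1% of the table) to 69 (17.9%) when 1 array was left out. The count called lower was then 0 to 2. With no scaling 13 were called higher (1.09%). When the transcripts were chosen again, 36 of 46 were called higher with median centring (9.88% of the table). There were 10 of 22 with no scaling (1.09%) and 114 of 150 with normexp (16.4%). In the 31 with an Oregon-R change below 0.2, chosen after the data were seen, 22 were called higher (16.3% of the table). Their prepupal difference was -0.25.

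Medians moved by more than 1 SD between replicate arrays (0.12) in a few settings. With no scaling they were 0.33 in Zimbabwe-109, 0.99 in Canton-S and 0.53 in Samarkand, and the prepupal difference was -0.26. The table median then was 0.23 in Canton-S and -0.06 in Zimbabwe-109. The prepupal difference was -0.28 with median centring. With normexp the medians were 1.04 in Canton-S and 0.90 in Samarkand, and the larval difference was 0.73. The cause was not tested. Leaving out the dimmest 30% or 50% of transcripts, or the 2 Zimbabwe-109 arrays, kept these medians within 1 SD and the Zimbabwe-109 counts within 1.5 times. Leaving out 1 array kept the Zimbabwe-109 median from 0.45 to 0.58, the larval difference from 0.51 to 0.57 and the prepupal difference from -0.11 to -0.06.

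Correlations of deviations did not show that shared replicate numbers pair the arrays. They ran from -0.63 to 0.42 over 9 same-numbered pairs, of which 4 were the best match. Deviations within a group of 3 arrays depend on one another, so these correlations cannot exclude pairing. With a replicate block, 51 of the 77 were called higher (9.46% of the table) and 2 lower, with a median of 0.45. That fit left 5 residual degrees of freedom, and only replicates 3 and 4 of Zimbabwe-109 occur at both stages.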

Other observations

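Of the 77 transcripts, 19 (24.7%) carried identifiers that begin with FBtr0113 or FBtr0114, against 59 of the 416 comparison transcripts (14.2%) and 892 of the whole table (5.36%). These beginnings were chosen after the list had been seen, and no test was made. In all 19 the Oregon-R larvae stood above the mean of Canton-S and Samarkand, by 0.32 to 0.95 on the log2 scale with a median of 0.56, and the median prepupal difference was 0.13. Their Zimbabwe-109 changes ran from 0.31 to 0.68. The reference table gives no gene for these identifiers.

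With quantile scaling, the opposite course was more frequent in the table. A fall of at least 0.6 in both Canton-S and Samarkand with an Oregon-R change above -0.3 was found in 291 transcripts, against the 77 rises. Falls were not counted under the other processing, where the rises numbered 46 with median centring, 22 with no scaling and 150 with normexp.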
